A study of Homo sapiens with 12 samples.

Results

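The Microprocessor and nuclear factors that help it on primary microRNA transcripts were followed as 7 genes, DROSHA, DGCR8, DDX5, DDX17, KHSRP, SRRT and DBR1. They were listed by name for their known roles, with earlier results of these data known. They were looked up by Ensembl identifier among the 58735 genes of the deposited count tables. All 7 were found, and all 7 passed the filter on low counts in both comparisons. The series holds 12 RNA sequencing libraries of HEK293T, an established line of human embryonic kidney origin with the SV40 large T antigen, in 4 groups of 3. In the plasmid arm, 500 ng of a miR-211 plasmid or of a control plasmid was delivered. In the siRNA arm, 1 nM of a siRNA targeting U1, the small nuclear RNA that recognises 5′ splice sites, or else a scrambled oligo was given, groups that the labels write as "U1 siRNA WT" and "Scram WT". RNA was taken after 24 h. For the plasmid arm the labels state a transfection efficiency of at least 50% by GFP fluorescence, so a library can also hold RNA of cells that were not transfected. For the U1 siRNA libraries they state a U1 inhibition of 30%. No transfection efficiency is given for the siRNA arm, where such cells may be present too. Which promoter drives the plasmids is not stated in the labels. In such bulk RNA, fewer cells of a kind and less RNA per cell cannot be told apart.

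A primary microRNA transcript folds into a hairpin, which the Microprocessor cuts out in the nucleus. DROSHA is the RNase III enzyme that makes the cut, and DGCR8 is the double-stranded RNA binding partner that holds the hairpin and steadies DROSHA. DDX5 and DDX17 are paralogous DEAD-box RNA helicases that assist the complex on some hairpins and also act in splicing and transcription. KHSRP binds the terminal loop of a group of precursors and also takes part in decay of AU-rich messengers. SRRT (ARS2) links the nuclear cap-binding complex to primary microRNA processing. DBR1 opens intron lariats after splicing, a step that releases mirtrons, the short introns that bypass the Microprocessor. The series title concerns intronic microRNAs and splicing, the setting in which these genes were followed. Whether their proteins act on a given hairpin, and when, was not measured. A hairpin in the DGCR8 messenger is itself a known substrate of the Microprocessor.

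The delivered microRNA and microRNAs that lie inside the members are shown first, because the former is the treatment and the latter are hairpins that members carry in their own genes. The sequences are those of RefSeq on GRCh38.p14, written 5′ to 3′ with the seed (bases 2 to 8) in capitals. No seed is shared among them.

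hsa-miR-211-5p: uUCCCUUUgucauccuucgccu
hsa-miR-3618: uGUCUACAuuaaugaaaagagc
hsa-miR-1306-5p: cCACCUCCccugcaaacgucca
hsa-miR-1306-3p: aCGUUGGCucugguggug
hsa-miR-3064-5p: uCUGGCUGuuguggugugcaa
hsa-miR-5047: uUGCAGCUgcgguuguaaggu
hsa-miR-3940-5p: gUGGGUUGgggcgggcucug

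MIR3618 (chromosome 22, 20085746 to 20085833) and MIR1306 (20086058 to 20086142) lie on the sense strand in exons of DGCR8. MIR3618 is wholly within exons, outside the coding sequence, of 3 coding DGCR8 transcripts, and MIR1306 is within the coding sequence of 4. MIR3064 (chromosome 17, 64500774 to 64500839) and MIR5047 (64501214 to 64501313) lie in DDX5, intronic in the coding transcripts that span them and exonic in 1 retained-intron transcript. MIR3940 (chromosome 19, 6416410 to 6416511) lies in KHSRP and shares 22 bases with its exons. All 5 hairpin genes had 0 counts in all 12 libraries, in each strand column too. A read pair that overlaps a hairpin gene and its host exon on the same strand is counted for neither. For MIR3618, MIR1306, MIR3064 and MIR5047, which lie wholly in such exons, a 0 is thus no measure of how much of the hairpin was transcribed. For MIR3940 this holds only for pairs that touch a KHSRP exon, and no other pair over it was counted. The mature microRNAs were not measured.

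The 3′ UTRs of the members hold no match to the miR-211-5p seed. The site types, the 8mer AAAGGGAA and the 7mers AAAGGGA and AAGGGAA, which overlap one another, were searched on the sense strand of the longest annotated 3′ UTR of each gene, since a microRNA pairs with one strand of its target. The UTRs searched were 935 nt for DROSHA, 1767 nt for DGCR8, 359 nt for DDX5, 2495 nt for DDX17, 764 nt for KHSRP, 115 nt for SRRT and 877 nt for DBR1. Among 19128 coding genes, 25.5% hold at least 1 of the sites. Among genes with a 3′ UTR within 10% of the member's length, the share is 41.4% for DDX17, 30.7% for DGCR8, 16.1% for DROSHA, 15.5% for DBR1, 14.0% for KHSRP, 5.54% for DDX5 and 2.93% for SRRT. No match says only that these letters are absent from these windows.

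Gene counts summed to 4515728 to 9290686 per library. Pairs outside annotated exons were 14.5% to 25.5% of uniquely mapped pairs in 11 libraries and 44.5% in U1 siRNA replicate 2, which also had the lowest total. The delivered gene checked the plasmid labels: MIR211 had 1646, 1997 and 1976 counts with the miR-211 plasmid and 1, 9 and 1 with the control plasmid. The siRNA target gave no such check, since 15 U1 genes summed to 18.9, 14.0 and 17.1 CPM (a gene's share of all gene counts, scaled as usual) in the siRNA libraries and to 19.4, 19.3 and 16.5 CPM in the scrambled ones, and how RNA was selected for the libraries is not stated in the labels. Of 9 genes known from HEK293 cells, 7 averaged at least 1 CPM, PAX2 and LHX1 being below it, and the list summed to 179 to 221. The same held for 1 of 5 melanocyte, 1 of 5 fibroblast and 0 of 5 blood cell markers, whose sums were 2.84 to 7.53, 2.73 to 14.0 and 0.591 to 3.54.

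Levels are given in CPM, and genes are set against each other only as CPM per kilobase of merged exons. DDX5 was by far the most abundant member, with a level of 316.4 ± 13.4 CPM per kb (SD, n = 12 libraries), rank 147 among 11888 coding genes with at least 1 CPM. DDX17 followed at 15.4 ± 2.45, SRRT at 14.1 ± 4.29, DBR1 at 13.1 ± 1.54, KHSRP at 9.43 ± 0.891, DROSHA at 9.07 ± 0.651 and DGCR8 at 1.68 ± 0.198 CPM per kb. From DDX17 down to DROSHA the range over libraries of each member overlapped that of the next. Within a library, DDX17 was above SRRT in 9 of 12, SRRT above DBR1 in 6 of 12 and KHSRP above DROSHA in 9 of 12, so the order of these neighbours was not fixed, while DBR1 was above KHSRP in 12 of 12. DGCR8 stood apart below them: its highest library reached 2.02 CPM per kb and the lowest DROSHA library 8.30. By percentile among coding genes, DDX5 lay at 98.8, the 5 middle members at 71.2 to 79.5, and DGCR8 at 39.4. With the longest transcript as length the order was the same (657 CPM per kb for DDX5, 2.62 for DGCR8).

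**Figure D1:**
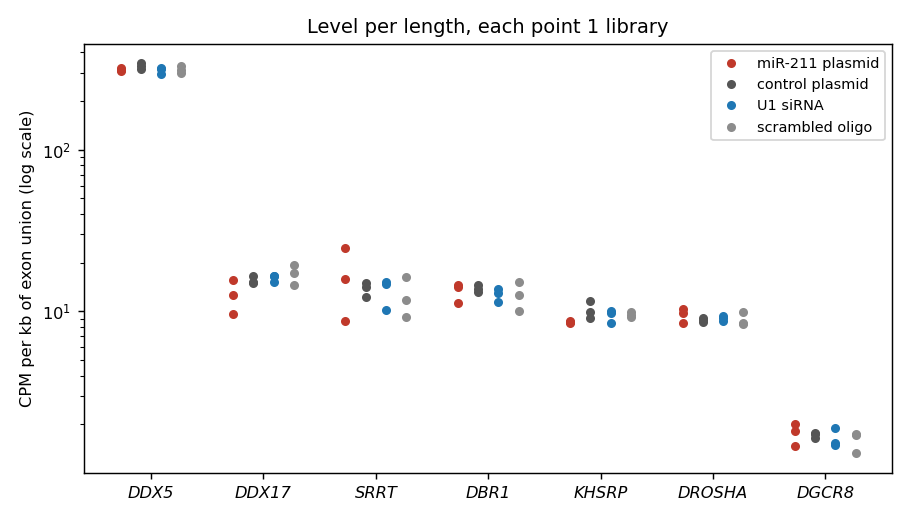
Level of each member per library in CPM per kilobase of merged exons, on a log axis, with 1 point per library and colour for group. DDX5 lies above 293 in every library and DGCR8 below 2.1, while the other 5 members share a band from 8.30 to 24.8.

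The paired subunits and the paired helicases were thus present at unequal messenger levels. The ratio of DROSHA to DGCR8 per kilobase was 5.41 ± 0.493 with the miR-211 plasmid, 5.13 ± 0.0566 with the control plasmid, 5.58 ± 0.778 in the U1 siRNA libraries and 5.62 ± 0.674 in the scrambled ones (SD, n = 3 each). The ratio of DDX5 to DDX17 was 25.8 ± 6.84, 21.2 ± 1.83, 19.3 ± 1.63 and 18.6 ± 2.94 in the same order. Both ratios overlapped between all 4 groups.

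None of the 7 members passed the test with the miR-211 plasmid. The background was 0.00788% of 12685 genes called (edgeR quasi-likelihood test, Benjamini-Hochberg adjusted p under 0.05), which is 1 gene, MIR211. At an unadjusted p under 0.05 edgeR called 0 of 7, with 3.29% of all genes as background, and DESeq2 and limma-voom each gave such a p to 1 of 7, DDX17, and to 1.48% and 3.22% of all genes. By log2 fold change 3 members were higher and 4 lower, with a median of -0.02 against 0.01 over all genes. The adjusted p was 0.996 to 0.997 for the 7 members. Replicate numbers pair these libraries, by a check on all genes. With the replicate number as a block 2 of 7 members had an unadjusted p under 0.05, DDX17 and KHSRP, where 7.43% of all genes did, and the adjusted p of the 7 was 0.625 to 0.970.

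DROSHA (ENSG00000113360, chromosome 5, 31400497 to 31532196, minus strand, GRCh38) had 80.4, 65.5 and 75.9 CPM with the miR-211 plasmid and 70.3, 66.5 and 69.1 CPM with the control plasmid. The miR-211 libraries lay on both sides of the controls, replicate 2 below all of them. The log2 fold change was 0.13 (SE 0.09, 95% interval -0.06 to 0.33, edgeR adjusted p 0.996). With the share of pairs outside exons as a covariate it was 0.06, without miR-211 replicate 1 also 0.06, and without miR-211 replicate 2 it was 0.20.

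DGCR8 (ENSG00000128191, chromosome 22, 20080232 to 20111877, plus strand) had 13.3, 10.8 and 14.7 CPM with the miR-211 plasmid and 12.8, 12.1 and 12.8 CPM with the control plasmid. The control libraries lay within the span of the miR-211 libraries. Its log2 fold change was 0.06 (SE 0.15, 95% interval -0.25 to 0.38). DGCR8 was the most thinly counted member, with 63 to 119 counts per library, and its count also depends on how strands are handled, as described further on.

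DDX5 (ENSG00000108654, chromosome 17, 64499616 to 64508199, minus strand) had 2353, 2284 and 2297 CPM with the miR-211 plasmid and 2524, 2440.5 and 2329 CPM with the control plasmid. It was lower with miR-211 in 3 of 3 same-numbered pairs, as were 18.6% of all genes, and the groups overlapped. KHSRP was the other member lower in all 3 pairs, and none was higher in all 3, as 11.8% of all genes were. The log2 fold change of -0.04 (SE 0.07, 95% interval -0.19 to 0.10) is the most closely bounded among the members.

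DDX17 (ENSG00000100201, chromosome 22, 38483440 to 38507660, minus strand) had 95.7, 156 and 127 CPM with the miR-211 plasmid and 151, 152 and 164 CPM with the control plasmid. Replicates 1 and 3 lay below every control, and replicate 2 lay among the controls. Its log2 fold change was -0.27 (SE 0.13, 95% interval -0.54 to 0.01, edgeR p 0.0604, adjusted p 0.996), and with the replicate block it was -0.29 (p 0.00981, adjusted p 0.625). It was -0.12 without miR-211 replicate 1, and -0.46 without miR-211 replicate 2 (p 0.00128, adjusted p 0.564). With the share of pairs outside exons as a covariate the value was -0.12. In all 3 pairs that share was the higher one in the miR-211 library (24.3% and 21.8%, 16.3% and 14.5%, 22.9% and 16.8%). Whether the share or the plasmid lies behind the DDX17 value was not tested.

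KHSRP (ENSG00000088247, chromosome 19, 6413348 to 6424794, minus strand) had 39.0, 39.8 and 38.8 CPM with the miR-211 plasmid and 41.3, 52.7 and 45.0 CPM with the control plasmid. It was the only member whose groups did not overlap, lower in all 3 miR-211 libraries; 9.7% of all genes did not overlap, and 6.42% of all genes were lower in this way. The miR-211 libraries lay within a narrow span, and the spread was among the controls. The estimate on the log2 scale was -0.21 (SE 0.11, 95% interval -0.45 to 0.02, edgeR p 0.0709, adjusted p 0.996), and with the replicate block it was also -0.21 (p 0.0321, adjusted p 0.645). Without control replicate 2 it was -0.10, and with the share of pairs outside exons as a covariate -0.12.

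SRRT (ENSG00000087087, chromosome 7, 100875111 to 100888664, plus strand) had 42.2, 76.7 and 120.4 CPM with the miR-211 plasmid and 59.9, 68.6 and 73.1 CPM with the control plasmid. Both its lowest and its highest library in the whole series carried the miR-211 plasmid, and the controls lay within the span of the miR-211 libraries. The log2 fold change was 0.29 (SE 0.24, 95% interval -0.23 to 0.80, edgeR adjusted p 0.996). It was -0.13 without miR-211 replicate 3, and 0.56 without miR-211 replicate 1 (p 0.000480, adjusted p 0.863).

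DBR1 (ENSG00000138231, chromosome 3, 138161012 to 138174949, minus strand) had 35.6, 46.1 and 44.8 CPM with the miR-211 plasmid and 43.7, 45.8 and 41.7 CPM with the control plasmid. Replicate 1 with miR-211 lay below the controls, and replicate 2 above them. On the log2 scale the fold change was -0.02 (SE 0.11, 95% interval -0.26 to 0.22).

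**Figure D2:**
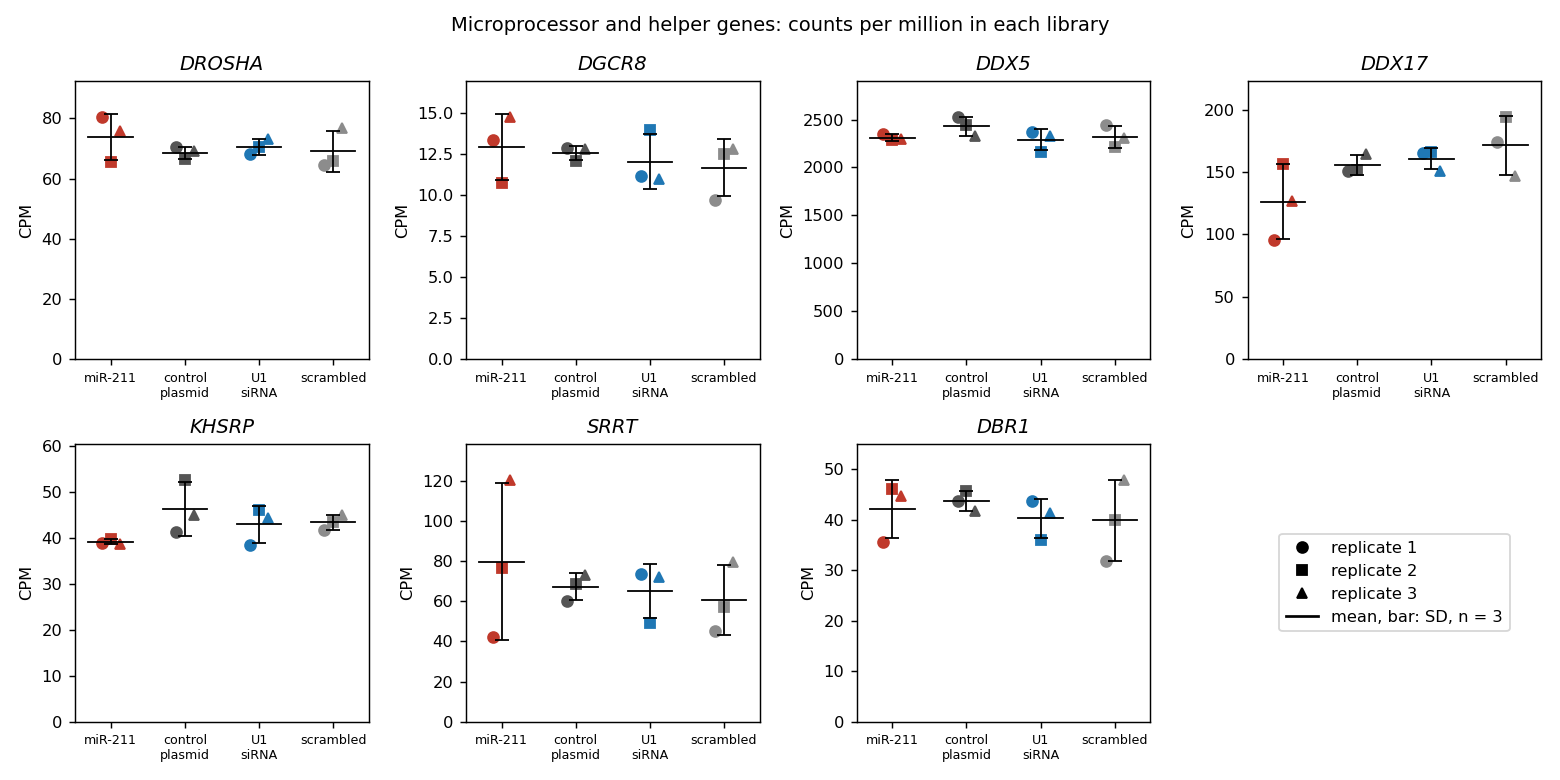
CPM of each member in every library, 1 panel per gene, with points for libraries, bars for group means and error bars for the SD (n = 3). The KHSRP points with miR-211 sit at 38.8 to 39.8, below all controls, and those of SRRT with miR-211 run from 42.2 to 120.4.

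With U1 siRNA none of the 7 members passed either. The background was 0% of 12413 genes called by edgeR, and 1.58% at an unadjusted p under 0.05, where 0 of 7 members had such a p by edgeR, DESeq2 (0.62% of all genes) or limma-voom (1.45%). No member's groups were free of overlap, against 6.45% of all genes (3.54% higher and 2.92% lower), and no member was higher or lower in all 3 same-numbered pairs, against 11.7% and 9.88% of all genes. By log2 fold change 4 members were higher and 3 lower, with a median of 0.01 against 0.02 over all genes, and the edgeR adjusted p rounded to 1.00 for each.

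Among the Microprocessor subunits, DROSHA had 68.1, 70.4 and 73.3 CPM after U1 siRNA, against 64.6, 65.7 and 76.9 CPM after the scrambled oligo (log2 fold change 0.02, SE 0.09, 95% interval -0.18 to 0.23). DGCR8 had 11.2, 14.0 and 11.0 CPM after U1 siRNA, against 9.68, 12.5 and 12.8 CPM with the scrambled oligo (0.03, SE 0.17, -0.34 to 0.39). The DROSHA libraries with siRNA lay inside the span of the scrambled ones, and DGCR8 had 1 siRNA library, replicate 2, above that span.

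Of the helicases, DDX5 had 2372, 2166 and 2332 CPM after U1 siRNA, against 2439.8, 2211 and 2304 CPM with the scrambled oligo (log2 fold change -0.03, SE 0.08, 95% interval -0.20 to 0.15). The lowest of these was U1 siRNA replicate 2, the library with the high share of pairs outside exons, and without it the value was 0.04. DDX17 had 166, 166 and 151 CPM after U1 siRNA, against 174, 194 and 147 CPM with the scrambled oligo (log2 fold change -0.10, SE 0.10, 95% interval -0.32 to 0.12). Scrambled oligo replicate 2 was the highest DDX17 library of the series, and without it the value was -0.01.

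The remaining members also overlapped between the groups. KHSRP had 38.5, 46.1 and 44.4 CPM after U1 siRNA, against 41.8, 43.5 and 45.1 CPM with the scrambled oligo (log2 fold change -0.03, SE 0.10, 95% interval -0.25 to 0.19). SRRT had 73.8, 49.4 and 72.1 CPM after U1 siRNA, against 45.0, 57.1 and 79.6 CPM with the scrambled oligo (0.10, SE 0.20, -0.33 to 0.54). DBR1, the debranching enzyme, had 43.7, 36.1 and 41.3 CPM after U1 siRNA, against 31.8, 40.0 and 47.9 CPM with the scrambled oligo (0.01, SE 0.14, -0.30 to 0.33). For SRRT and DBR1 the scrambled libraries spread wider than the siRNA libraries, from scrambled replicate 1 at the low end to replicate 3 at the high end. Without U1 siRNA replicate 2 SRRT had 0.28 and DBR1 0.10, and without scrambled replicate 3 they had 0.36 and 0.17. Both turned negative without scrambled replicate 1 (-0.07 and -0.13) or U1 siRNA replicate 1 (-0.003 and -0.06).

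**Figure D3:**
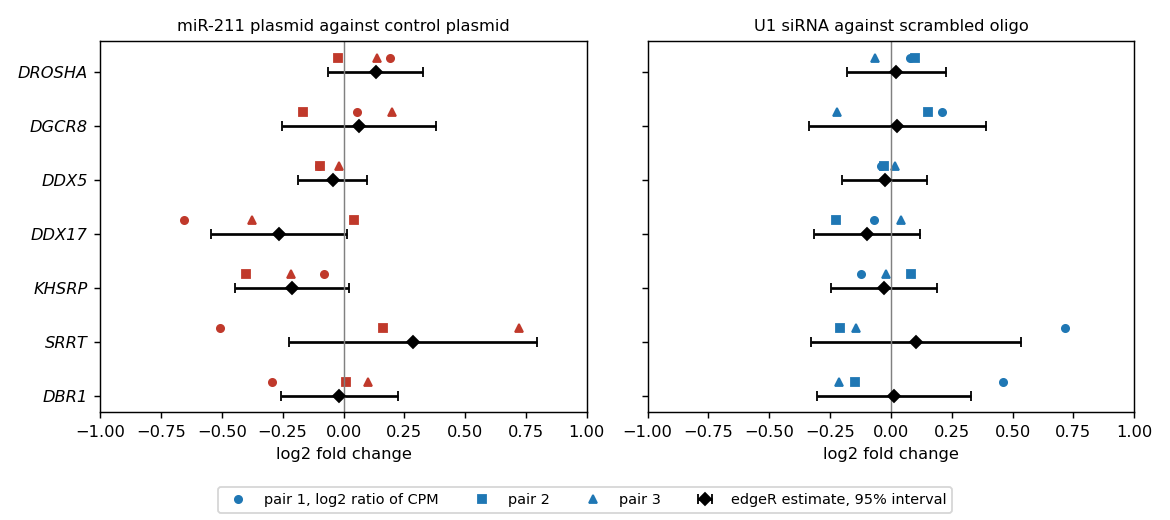
Log2 fold change of each member, with the miR-211 plasmid against its control on the left and U1 siRNA against the scrambled oligo on the right. Diamonds with bars are edgeR estimates with 95% intervals, and small symbols are the log2 ratios of CPM in same-numbered libraries. The intervals are those of the fits without the replicate block. They hold 0 for all 7 members in both panels, and SRRT has the widest.

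These intervals state how large a change the libraries leave possible in the fits without the replicate block. With the miR-211 plasmid the intervals of all 7 members lay within 2-fold, from 0.686-fold for DDX17 to 1.74-fold for SRRT, and those of 6 lay within 1.5-fold, all but SRRT. With U1 siRNA all 7 lay within 1.5-fold, from 0.791-fold for DGCR8 to 1.45-fold for SRRT. A p above the threshold does not show that a level did not differ. Intervals of the fit with the replicate block were not computed. That fit gave DDX17 and KHSRP an unadjusted edgeR p of 0.00981 and 0.0321 with the miR-211 plasmid.

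No member was shown to respond differently to the 2 treatments. The interaction, miR-211 effect minus U1 siRNA effect on the log2 scale, was 0.10 for DROSHA, 0.03 for DGCR8, -0.03 for DDX5, -0.18 for DDX17, -0.20 for KHSRP, 0.16 for SRRT and -0.04 for DBR1. The adjusted p was 0.999 for each (edgeR, all 12 libraries), and 0.0074% of 13520 genes were called. At an unadjusted p under 0.05 there were 0 of 7 members by edgeR (1.73% of all genes), DESeq2 (0.814%) or limma-voom (1.84%). The 95% interval was widest for SRRT, -0.64 to 0.97, and narrowest for DDX5, -0.24 to 0.18.

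The members also differed in how much they varied between libraries of one group. The biological coefficient of variation of SRRT was 20.5% in the plasmid arm and 16.9% in the siRNA arm, above 99.6% and 96.9% of genes with at least 10 CPM, whose medians were 8.07% and 8.93%. DDX17 had 11.4% (percentile 93.2) in the plasmid arm and 9.09% (percentile 52.9) in the siRNA arm. At the other end DDX5 had 6.36% and 7.41%, percentiles 1 and 17.1. DROSHA was below the median in both arms, with 7.67% and 8.20%. Over all 12 libraries the highest CPM was 2.86 times the lowest for SRRT, 2.02 for DDX17, 1.52 for DGCR8, 1.51 for DBR1, 1.37 for KHSRP, 1.24 for DROSHA and 1.17 for DDX5. SRRT had 223 to 931 counts per library, DROSHA 318 to 714 and DGCR8 63 to 119. The coefficient of variation of CPM over the 12 libraries was 11.7% for DGCR8, where counting alone gives 10.9%. For DDX5 these were 4.25% and 0.790%, so the ranking of spans also reflects depth.

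SRRT and DBR1 moved together more than any other pair of members, with a Pearson r of 0.85 of log2 CPM over the 12 libraries. Between DROSHA and DGCR8 r was 0.58, and between DDX5 and DDX17 0.28. Among 7118 other coding genes with at least 10 CPM, those most like each member by r were DDX41 (0.98) and PDCD11 (0.95) for DROSHA, YY1AP1 (0.90) and DOCK1 (0.87) for DGCR8, OAT and CDC23 (0.98 each) for DDX5, and HMGN5 (0.96) and UBE2E1 (0.94) for DDX17. For KHSRP they were CTSC and PIGW (0.85 each), for SRRT KRI1 (0.96), and for DBR1 ACTN4 (0.97) and HARS (0.96). These values describe 12 libraries that differ in depth and arm, with same-numbered pairs in the plasmid arm. What these add to r was not tested, and the highest of so many genes is high by selection.

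DGCR8 is the member whose count depends on strand. Its 3′ end shares 526 bases, 7.19% of its exon bases, with the antisense gene AC006547.2 (chromosome 22, 20110821 to 20111875), and a further 12 bases with TRMT2A. The unstranded column held 1007 DGCR8 counts over 12 libraries, and the strand columns held 692 and 658, together 34.1% more. AC006547.2 had 0 counts in the unstranded column and 149 and 142 in the strand columns. A pair over both genes is ambiguous without strand and is given to one gene in each strand column, so the added pairs may come from either gene. Of 7119 coding genes with at least 10 CPM, 9.92% gained more than DGCR8, and the median gain was 0.0441%.

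Summing the strand columns was added once the data had been seen, and gave DGCR8 16.7 ± 2.27 CPM with the miR-211 plasmid, 17.7 ± 1.35 with the control plasmid, 16.2 ± 1.88 in the U1 siRNA libraries and 15.3 ± 2.90 in the scrambled ones (SD, n = 3 each). These CPM divide the summed counts by each library's unstranded total, which leaves out the added pairs of all genes. Levels scaled to the larger totals of the summed columns are lower and are given further on. The log2 fold change with miR-211 then was -0.05 in place of 0.06, and it was -0.15 in strand column 3 alone. The ratio of DROSHA to DGCR8 per kilobase was then 3.66 to 4.32 in group means. DDX5 overlaps CEP95 by 506 bases, 6.85% of its exon bases, yet gained only 1.04%. DDX17 gained 1.58%, DROSHA 0.0345%, and KHSRP, SRRT and DBR1 gained 0.

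**Figure D4:**
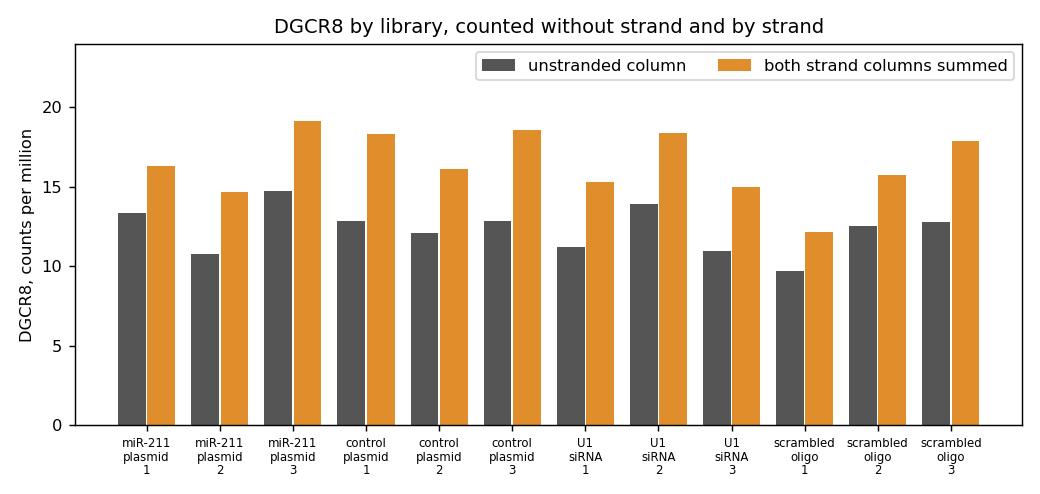
DGCR8 in each library in CPM, from the unstranded column (grey) and from both strand columns summed (orange). Both bars are divided by the library's unstranded total, so a summed bar cannot be the lower one. The summed bars are higher in all 12 libraries, and the groups overlap under either count.

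The wider pathway was read from 6 lists that hold 78 genes besides the members, 74 of them tested. With the miR-211 plasmid 0 of the 74 passed, 31 were higher and 43 lower, with a median log2 fold change of -0.03 against 0.01 over all genes. Of the 74, 12 had groups without overlap, where 9.7% of all genes did, and 2 had an unadjusted p under 0.05, where 3.29% did. Both of these averaged under 10 CPM and were named after their values were seen: ZC3H18, a partner of the cap-binding complex and SRRT, with 5.82 ± 1.19 against 3.58 ± 0.613 CPM (log2 fold change 0.74), and GSK3B, a kinase that phosphorylates DROSHA, with 9.41 ± 1.23 against 6.89 ± 1.23 CPM (0.49, SD, n = 3 each).

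By list, counts and medians cover all genes tested, the 7 members included, and the genes named are the lowest and highest among those with at least 10 CPM. With miR-211, 10 of 23 Microprocessor cofactors were higher (median -0.03), from DDX17 at the low end to SAFB, a chromatin and RNA binding protein (0.26). Of the proteins that bind terminal loops or primary transcripts 4 of 14 were higher (median -0.07), from KHSRP to ELAVL1, an AU-rich element binding protein (0.11). Of the cap binding and SRRT partners 3 of 11 were higher (median -0.07), from RBM7, of the nuclear exosome targeting complex (-0.21), to SRRT. In lariat debranching and intron turnover 5 of 12 were higher (median -0.03), from GCFC2 (-0.19) to TFIP11 (0.19), a factor of spliceosome disassembly. In export and cytoplasmic processing 6 of 10 were higher (median 0.06), from AGO2, the slicing Argonaute (-0.12), to RANGAP1 (0.13), which activates the GTPase of the export cycle. Of the kinases, deacetylases and other partners of DROSHA or DGCR8 6 of 11 were higher (median 0.01), with the deacetylase HDAC2 lowest (-0.14).

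With U1 siRNA again 0 of the 74 passed, 33 were higher and 41 lower, with a median of -0.02 against 0.02 over all genes. Of the 74, 6 had groups without overlap (6.45% of all genes), and 1 had an unadjusted p under 0.05 (1.58%), METTL14, a subunit of the methyltransferase that marks primary microRNAs. METTL14 had 77.1 ± 5.14 against 88.4 ± 5.73 CPM (SD, n = 3 each), and its log2 fold change was -0.20. With the named genes again limited to at least 10 CPM, higher members numbered 11 of 23 among cofactors (median -0.005, from ERH at -0.13, a DGCR8 binding protein, to EWSR1 at 0.17), and 8 of 14 among transcript binders (0.02, METTL14 to CELF1 at 0.11). They numbered 3 of 11 among cap binding and SRRT partners (-0.06, ZFC3H1 at -0.19 to RBM7 at 0.11) and 4 of 12 in lariat turnover (-0.03, CWF19L2 at -0.12 to TFIP11 at 0.02). In export and cytoplasmic processing they numbered 4 of 10 (-0.01, AGO3 at -0.10 to AGO4 at 0.18), and among the partners of DROSHA or DGCR8 7 of 11 (0.05, SMAD2 at -0.09 to SMAD1 at 0.13).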

How the data were processed

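The 12 HEK293T libraries, 3 per group, were sequenced with paired-end reads of 126 nt per the labels' protocols. The authors deposited raw gene counts in the layout of STAR's gene output, and the submitters' processing notes name STAR 2.7.2a, GRCh37 and hg19. All 58735 identifiers match GENCODE 29, made on GRCh38. The build used for alignment is not settled by these sources, so coordinates and lengths are from GENCODE 29 on GRCh38. The unstranded column was used. Without strand, pairs over overlapping genes are counted for none. The 4 summary lines were left out of totals and tests. RNA selection and strand of the kit are not given in the sources used here.

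CPM is a gene's count divided by its library's total over all genes, scaled to the usual CPM unit. Tests used edgeR 4.0.16 (R 4.3.3) with TMM, filterByExpr, the quasi-likelihood test and Benjamini-Hochberg adjustment over all genes at 0.05, on the 6 libraries of a comparison, and an interaction over all 12. The SE is the log2 fold change over the root of F, and 95% intervals use its degrees of freedom. Correlations and the pairing check used log2 CPM scaled by TMM over all 12 libraries, with a prior count of 2. DESeq2 1.42.0, limma-voom (limma 3.58.1), other scalings, strand columns, no filter, a covariate, a replicate block and leaving out each library were alternatives. The test was tried on simulated counts.

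The members and lists were chosen with earlier results of these data known. Named genes are the 7 members, the highest and lowest of each list with at least 10 CPM, the 2 coding genes most correlated with each member, and any listed gene called. Some genes that this rule picked are not reported here. Same-numbered libraries of the plasmid arm deviated together (r 0.249, 0.308 and 0.240, each above 0.1), so their numbers were taken to pair them. No label says that replicates came from separate cultures, and their spread, which is all that the p-values reflect, may be technical. Replicates of a group all differed beyond sampling noise (chi-square over its degrees of freedom 1.95 to 7.03).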

Additional observations from a re-analysis of the deposited data

How the results depend on the processing

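No member was called under any alternative. With miR-211, 2 of 7 had an unadjusted edgeR p under 0.05 by library totals only, DDX17 and KHSRP (453 of 12685 genes). Without a filter there were also 2, DDX17 and SRRT (1313 of 44268 genes). In strand column 4 it was DDX17 alone (444 of 12008), and with all 12 libraries in 1 fit KHSRP alone (378 of 13520). Other scalings, strand column 3, summed strand columns and the share of pairs outside exons as a covariate gave 0 of 7. Not leaving out a library, 217 values of members and interactions were recomputed and 16 changed sign. With miR-211 these were DGCR8 (-0.15 in strand column 3, -0.052 with strand columns summed, -0.039 with the share of pairs outside exons as a covariate) and DBR1 (0.022 in strand column 4, 0.0061 with upper quartile scaling, 0.063 with the covariate). With U1 siRNA they were DROSHA (-0.034 in strand column 3, -0.047 without a filter), DGCR8 (-0.051 without a filter, -0.034 with the covariate), DDX5 (0.013 with the covariate), KHSRP (0.024 in strand column 4) and DBR1 (-0.048 without a filter). In the interaction they were DGCR8 (-0.24 in strand column 3, -0.12 summed) and DBR1 (0.016 in strand column 4). The cause was not tested.

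Genes called with miR-211 numbered 2 in strand column 3, in strand column 4, with strand columns summed and without a filter, against 1. With U1 siRNA there were 7 without a filter, against 0. In the interaction there were 0 in strand column 3, in strand column 4, summed and with the replicate block, against 1, and 0 to 1 when a library was left out. Mean levels per kb with the longest transcript as length were 13.3 for DROSHA, 2.62 for DGCR8, 657 for DDX5, 23.8 for DDX17, 14.4 for KHSRP, 23.0 for SRRT and 15.6 for DBR1, since that length is shorter than the merged exons. In strand column 3 they were 7.97 for DROSHA, 2.12 for DGCR8, 287.6 for DDX5 and 6.83 for KHSRP, in strand column 4 8.01 for DROSHA, 276.1 for DDX5 and 11.5 for DBR1, and summed 7.99 for DROSHA, 1.98 for DGCR8, 281.6 for DDX5, 8.30 for KHSRP and 11.6 for DBR1. These strand levels are scaled to the totals of the columns used, unlike the summed DGCR8 CPM by group given above. Levels of members not named for a strand setting were computed too and are not reported here.

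Leaving out 1 library changed the sign of 32 of 168 values. Ranges with miR-211 were 0.060 to 0.20 for DROSHA, -0.045 to 0.18 for DGCR8, -0.077 to -0.030 for DDX5, -0.46 to -0.12 for DDX17, -0.31 to -0.098 for KHSRP, -0.13 to 0.56 for SRRT and -0.10 to 0.075 for DBR1. With U1 siRNA they were -0.025 to 0.11, -0.091 to 0.10, -0.062 to 0.036, -0.20 to -0.0090, -0.076 to 0.038, -0.074 to 0.36 and -0.13 to 0.17 in the same order. In the interaction they were 0.017 to 0.17, -0.075 to 0.15, -0.087 to 0.011, -0.37 to -0.0050, -0.27 to -0.069, -0.24 to 0.47 and -0.20 to 0.085.

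With the replicate block, genes called numbered 1 with miR-211 and 0 with U1 siRNA, and the block changed no call of a member. Same-numbered libraries of the siRNA arm had r 0.142, 0.0909 and -0.05. Only the r of replicate 1 was above 0.1, so the numbers were not taken to pair this arm. Whether they do is not settled by this check. There the block gave 224 genes at an unadjusted p under 0.05 in place of 196 and log2 fold changes of -0.09 for DDX17 and 0.12 for SRRT. DGCR8, at 63 to 119 counts per library, is the member most limited by depth.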

Other observations

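KHSRP counts leaned to one strand column. Over 12 libraries 1405 were in strand column 3 and 2119 in strand column 4, so that column 3 held 39.9% of them. The median of 7119 coding genes with at least 10 CPM was 48.4%, and 0.0562% of them had a lower share. By library the KHSRP share ran from 35.4% in control plasmid replicate 1 to 48.0% in miR-211 plasmid replicate 3. The latter library also had the highest ratio of column 3 to column 4 over all genes, 1.01 against 0.907 to 0.929 in the other 11. No gene on the opposite strand shares exon bases with KHSRP in the annotation, and its strand columns add up to the unstranded count in every library. The cause of the lean was not tested. The other 6 members had shares of 46.7% (SRRT) to 51.3% (DGCR8). This was chosen after its values were seen.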
